A study of Mus musculus with 3 samples.

Results

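A set of 42 genes of the interferon response and of antigen presentation was followed through the cell classes of mouse mandibular molars. They were taken by name from 3 single-cell count matrices: 42 of the 28006 genes listed for the P25 and the Cxcl12-GFP P6 libraries, and 41 of 32286 for the Cxcl12-creER P6 library, whose gene list here lacks Mx1. No measured value entered the choice of names, although the list was drawn up with earlier results of these data known. The genes fall into 6 roles: 4 transcription factors, 2 sensors of foreign nucleic acid, 20 antiviral effectors, 7 interferon-inducible GTPases, 3 genes of the Ifitm family and 6 genes of class I antigen presentation.

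Interferons are secreted proteins that bind receptors on the surface of almost every cell and act through JAK kinases and STAT proteins. A complex that holds STAT2 and IRF9 binds a DNA element called the ISRE in front of many genes, and another element, called GAS, acts mainly after interferon gamma. The induced genes block virus entry, translation and budding, and they raise the display of peptides on class I molecules to T cells. Endothelial cells line blood vessels, and pulp cells are the fibroblast-like mesenchyme inside the tooth, next to the dentine-forming odontoblasts.

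The P25 library held GFP+, tdTomato+ and GFP+tdTomato+ cells of Col1a1-GFP; Cxcl12-creER; R26R(tdTomato/+) mice at postnatal day 25. In these mice GFP marks cells with an active promoter of the collagen gene Col1a1, and tdTomato marks cells, and their descendants, in which a tamoxifen-dependent recombinase driven by the chemokine gene Cxcl12 has been active. The Cxcl12-GFP P6 library was made from GFP+ cells of mice with the genotype Cxcl12-GFP/+, taken on postnatal day 6, and the Cxcl12-creER P6 library held tdTomato+ cells of Cxcl12-creER; R26R(tdTomato/+) mice at the same age. Strain, number of animals and times of tamoxifen were not in the sources used here. Molar pulp and periodontium were dissociated with enzymes and sorted for fluorescence before droplet 3′ sequencing. Each group was 1 library, so no value has a replicate error, no p-value was computed, and each 95% interval (in parentheses) is for counting error alone. Age, gate and run differ between the libraries and cannot be told apart.

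The P25, Cxcl12-GFP P6 and Cxcl12-creER P6 libraries kept 5401, 7065 and 1121 cells, with median depths of 14744, 8141 and 1459 unique molecular identifiers (UMIs, counted molecules) per cell. Unnamed cells were 7.59%, 24.8% and 33.0% of these libraries. P25 shared 1 barcode with Cxcl12-GFP P6 and 5 with Cxcl12-creER P6, and the P6 libraries shared 0. The first 8 bases of a barcode recurred among P25 barcodes for 82.3% of barcodes in Cxcl12-creER P6 and 21.0% in Cxcl12-GFP P6, and whether the chemistry differed was not tested. At P25, cells were grouped into 91 endothelial-like cells (cluster 19) and 963 pulp-like cells (clusters 3, 7, 12 and 16), beside ligament-like, osteoblast-like, odontoblast-like and other classes. In P25 endothelial-like cells 12 of 12 endothelial markers were at least 2-fold above the other named cells, and in pulp-like cells 10 of 17 pulp markers were. No marker of either list was at 0. The labels call the sorted cells mesenchymal, yet all 3 libraries held endothelial-like cells. Levels below are CPM, the UMIs of a gene per 1000000 summed UMIs of a class, and in 3′ tag data a CPM is not scaled by gene length. A member is called higher or lower at 2-fold or more, provided that the higher side had 20 CPM and 20 UMIs or more.

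The promoters of 6 genes on which the results turn, and of Ifitm1, are printed because the members are grouped by their known response to interferon. The letters show which windows match a short form of the ISRE. Each is the RefSeq sequence from 250 bases before to 50 bases after a transcription start, on build GRCm38.p6, with matches to the ISRE letters in capitals. The letters searched on both strands were GAAA, any 2 bases and GAAA again. Overlapping matches run together.
Isg15 (chr4:156200769-156201068, minus strand): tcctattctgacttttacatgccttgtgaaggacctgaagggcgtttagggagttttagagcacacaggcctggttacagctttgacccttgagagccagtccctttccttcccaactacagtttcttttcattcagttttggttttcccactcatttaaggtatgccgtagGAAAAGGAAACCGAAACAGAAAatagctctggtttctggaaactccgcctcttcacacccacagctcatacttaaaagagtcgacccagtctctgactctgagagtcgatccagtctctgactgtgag
Ifit1 (chr19:34640639-34640938, plus strand): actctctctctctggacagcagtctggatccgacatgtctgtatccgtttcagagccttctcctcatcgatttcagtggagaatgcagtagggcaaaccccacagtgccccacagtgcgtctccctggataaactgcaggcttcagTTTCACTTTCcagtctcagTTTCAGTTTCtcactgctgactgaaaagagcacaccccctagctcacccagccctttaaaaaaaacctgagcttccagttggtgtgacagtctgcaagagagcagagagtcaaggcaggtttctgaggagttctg
Bst2 (chr8:71537423-71537722, minus strand): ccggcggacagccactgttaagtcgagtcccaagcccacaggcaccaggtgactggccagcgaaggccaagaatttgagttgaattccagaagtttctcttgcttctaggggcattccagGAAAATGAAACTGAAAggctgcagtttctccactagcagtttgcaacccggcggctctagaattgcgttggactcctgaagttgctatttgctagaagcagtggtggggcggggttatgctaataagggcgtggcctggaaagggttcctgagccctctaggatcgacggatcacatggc
Ifitm3 (chr7:141010695-141010994, minus strand): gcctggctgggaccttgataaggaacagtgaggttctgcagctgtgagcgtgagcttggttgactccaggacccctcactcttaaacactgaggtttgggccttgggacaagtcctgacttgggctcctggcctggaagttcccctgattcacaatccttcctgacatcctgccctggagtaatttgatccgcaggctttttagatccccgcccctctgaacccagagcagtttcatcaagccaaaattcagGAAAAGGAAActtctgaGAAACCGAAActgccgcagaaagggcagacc
B2m (chr2:122147437-122147736, plus strand): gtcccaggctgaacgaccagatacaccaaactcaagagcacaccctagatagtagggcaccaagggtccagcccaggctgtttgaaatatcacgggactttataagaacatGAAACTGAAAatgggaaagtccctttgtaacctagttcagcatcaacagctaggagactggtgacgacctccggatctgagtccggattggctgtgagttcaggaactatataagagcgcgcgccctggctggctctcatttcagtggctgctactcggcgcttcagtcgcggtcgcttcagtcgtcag
Ifitm1 (chr7:140967826-140968125, plus strand): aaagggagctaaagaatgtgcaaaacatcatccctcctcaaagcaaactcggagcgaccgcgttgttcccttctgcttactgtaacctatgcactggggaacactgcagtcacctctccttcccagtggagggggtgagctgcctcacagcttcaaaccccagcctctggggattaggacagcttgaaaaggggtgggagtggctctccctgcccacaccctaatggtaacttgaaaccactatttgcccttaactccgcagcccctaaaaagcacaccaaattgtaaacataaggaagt
H2-K1 (chr17:34000284-34000583, minus strand): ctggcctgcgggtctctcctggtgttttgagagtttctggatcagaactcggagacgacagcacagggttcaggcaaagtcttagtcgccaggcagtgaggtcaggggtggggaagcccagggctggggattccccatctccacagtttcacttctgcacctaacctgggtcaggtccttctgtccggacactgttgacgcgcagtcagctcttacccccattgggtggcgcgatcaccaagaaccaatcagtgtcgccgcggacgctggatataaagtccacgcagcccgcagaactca
The Isg15 window held 3 overlapping matches, starting between 78 and 66 bases before the transcription start. Ifit1 had 2 matches on its minus strand, Bst2 and Ifitm3 had 2 each, and B2m had 1, while the windows of Ifitm1 and H2-K1 held none of these letters. The Ifitm1 window lies inside the annotated gene, whose first base is 140967221, and the sequence before that base was not searched. RefSeq promoters were found for 34 of the 42 members. Of these 34, 16 (47.1%) held the ISRE letters in at least 1 promoter, against 3.99% of all 27025 genes and 3.44% of all 32851 promoters in the table. The GAS letters TTCNNNGAA, which read the same on both strands, were in promoters of 9 of 34 members (26.5%), against 9.55% of all genes. A match describes the letters in the window and is not evidence of binding. A window without a match may still hold a variant of the element, because only the stated letters were searched.

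Most of the 42 genes were higher in P25 endothelial-like cells than in the pooled other non-blood cells, with 1 small class apart. Against all other named non-blood classes together (4335 cells), 35 of 42 members were at least 2-fold higher in the 91 endothelial-like cells and 1, Ifitm1, was lower. Of all 7277 genes tested, 22.8% were at least 2-fold higher and 12.6% lower in the same comparison. Tested genes are those that passed the filter, as 39 of the members did. The median log2 ratio was 3.22 over the 42 members, 3.23 over those 39 and 0.35 over all genes tested. The others were Ifi27, Irf1 and Ifitm2, which did not reach 2-fold, and Oas1a, Oasl1 and Mx1, which had fewer than 20 UMIs in endothelial-like cells. Against single non-blood classes the median over the members lay between 2.33 and 4.72, except for 0.21 against the 27 bone marrow stromal-like cells. In that comparison 9 members were higher and 4 lower (Irf1, Ifit1, Ifi27 and Ifitm1), beside 27.6% and 11.5% of the 5475 genes tested.

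Of the 4 transcription factors, 3 were higher in P25 endothelial-like cells. Irf7, which amplifies type I interferon production, had 218 CPM in endothelial-like cells and 6.03 CPM in the other non-blood classes, a ratio of 36.2 (30.8 to 42.4). Irf9, the DNA-binding subunit of the ISRE complex, had 72.4 against 14.1 CPM (ratio 5.15, 4.07 to 6.44), and its partner Stat2 had 38.8 against 6.19 CPM (ratio 6.27, 4.51 to 8.54). Irf1, a factor that interferon gamma induces quickly, stood apart with 160 CPM in endothelial-like and 152 CPM in other non-blood cells, a ratio of 1.05 (0.902 to 1.21). Both sensors were higher: Ifih1, which detects long double-stranded RNA, at 54.3 against 5.14 CPM and Zbp1, a sensor of left-handed nucleic acid, at 38.8 against 1.20 CPM.

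Of the 20 antiviral effectors, 16 were higher and 0 lower. The largest ratio belonged to Rsad2, the radical enzyme viperin (chr12:26442746-26456452, minus strand, GRCm38), with 172 CPM in endothelial-like cells and 0.640 CPM in the other non-blood classes (ratio 269, 194 to 381). Its neighbour Cmpk2, a mitochondrial nucleotide kinase, had 43.1 against 0.967 CPM (ratio 44.6), and Ifi44 had 153 against 1.42 CPM (ratio 107). These genes were thus near 0 in most other classes. The abundant effectors were Ly6e, a surface protein with 2130 against 120 CPM (ratio 17.8, 17.0 to 18.6), and Bst2, the tetherin that holds budding virus particles, with 1086 against 46.9 CPM (ratio 23.1, 21.7 to 24.7). Isg15, a ubiquitin-like modifier, had 350 against 28.9 CPM (ratio 12.1, 10.9 to 13.5), and Ifit3, an RNA-binding protein, 111 against 4.88 CPM (ratio 22.8, 18.5 to 28.0). Ifit3 lies beside a near-identical copy, Ifit3b, which had 50.02 against 1.81 CPM, and the split of reads between such copies is uncertain. It is likewise uncertain within Gbp, Oas, Ifitm and H2 families.

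All 7 GTPases were higher in P25 endothelial-like cells. Iigp1, which disrupts the vacuoles of intracellular parasites, had 510 CPM against 24.2 CPM in other non-blood cells (ratio 21.1, 19.1 to 23.1). The guanylate-binding Gbp3 and Gbp7 had ratios of 16.3 and 12.7, and the lowest ratio of the 7 was that of Irgm1 at 5.03 (4.12 to 6.08). All 6 class I genes were higher as well. H2-D1 and H2-K1, the classical heavy chains, had 4707 against 651 CPM (ratio 7.23, 7.03 to 7.44) and 2492 against 282 CPM (ratio 8.85, 8.51 to 9.20). B2m, their light chain, had 2562 against 618 CPM (ratio 4.15, 3.99 to 4.30). Psmb8 and Psmb9, the subunits of the immunoproteasome, had ratios of 9.42 and 15.9, and Tap1, a subunit of the peptide transporter, had 75.9 against 13.9 CPM.

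The Ifitm family, membrane proteins that block virus fusion, did not move as a group. Ifitm3 had 3700 CPM in endothelial-like cells and 888 CPM in other non-blood cells (ratio 4.17, 4.04 to 4.30). Ifitm2 had 1101 against 1148 CPM, a ratio of 0.958 (0.906 to 1.01). Ifitm1 had 16.4 CPM (19 UMIs) in endothelial-like cells and 252 CPM in the others, a ratio of 0.0650 (0.0391 to 0.102). Of the 34 members with a promoter, 14 of the 16 with the ISRE letters and 15 of the 18 without them were higher in endothelial-like cells.

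Further genes of the pathway, from lists drawn up with earlier results known, were also higher in P25 endothelial-like cells. Of 37 other interferon-stimulated genes 25 were higher and 0 lower, among them Gbp9 (131 against 0.171 CPM), Gbp4 (73.3 against 0.199 CPM), Slfn2 (109 against 0.455 CPM) and the nuclear sensor-family gene Ifi203 (254 against 1.14 CPM). Of 6 receptor subunits 2 were higher, Ifnar1 of the type I receptor at 74.2 against 27.3 CPM and Il10rb of the type III receptor at 77.6 against 22.9 CPM. In the remaining lists 4 of 8 sensors, 11 of 16 other class I genes and 5 of 7 class II genes were higher, and none of these lists had a member that was lower. The class II chaperone Cd74 had 236 CPM in endothelial-like cells, 4.57 CPM in the other non-blood classes and 6568 CPM in macrophage-like cells.

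Blood-cell markers were low in the endothelial-like cells. The 9 macrophage markers summed to 99.2 CPM there, between 15.04 and 129 CPM in the other non-blood classes and 32548 CPM in macrophage-like cells. The 8 neutrophil markers summed to 65.5 CPM, against 139753 CPM in neutrophil-like cells. When cells with any UMI of the macrophage, neutrophil, lymphocyte or dendritic cell lists were left out, 30 endothelial-like and 1701 other cells remained and 26 members were higher, all of them among the 35. The 9 that were lost were Ifih1, Zbp1, Usp18, Stat2, Irf9, Trim25, Cmpk2, Tap1 and Ifit2, and fewer cells by construction leave fewer UMIs for the filter.

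Across the 10 P25 classes of at least 50 cells, blood classes included, endothelial-like cells had the highest level for 31 of the 42 members, of which 40 passed the filter, with an interval above the next class for 26. They were highest for 18.8% of all 9681 genes that passed it. For Isg15 the order began with 350 CPM in endothelial-like, 77.7 CPM in macrophage-like and 62.1 CPM in pulp-like cells, and it ended with 0.538 CPM in odontoblast-like cells. For H2-K1 it began with 2492 CPM in endothelial-like, 2164 CPM in macrophage-like and 870 CPM in neutrophil-like cells, and it ended with 146 CPM in pulp-like cells. Macrophage-like cells were highest for 4 members (Oas1a, B2m, Trim25 and Zbp1) and 13.9% of all genes, neutrophil-like cells for Psmb8 and 9.95% of all genes, and connective tissue fibroblast-like cells for Ifi27 and 8.35% of all genes. The Psmb8 levels of endothelial-like, neutrophil-like and macrophage-like cells, 352, 374 and 350 CPM, lay close together. Pulp-like cells were highest for 3 members, Ifitm1, Ifitm2 and Irf1, and for 10.2% of all genes. For Irf1 the levels of pulp-like and Schwann-like cells, 262 and 261 CPM, could not be told apart by their counting interval.

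The share of cells with a UMI showed the same order once every cell was thinned to 1000 UMIs. Isg15 was then found in 23 of 91 endothelial-like cells (25.3%, 16.7 to 35.5%). The counts were 44 of 963 (4.57%, 3.34 to 6.09%) for pulp-like cells and 37 of 1855 (1.99%, 1.41 to 2.74%) for ligament-like cells. Without thinning these shares were 75.8%, 19.7% and 13.0%, at median depths of 10578, 11285 and 16697 UMIs. Odontoblast-like cells, at a median of 18860 UMIs, had 0 of 181 cells with Isg15 after thinning, and 1.10% without it. Bst2 was found in 64.8% of thinned endothelial-like cells and 3.63% of pulp-like cells, and H2-K1 in 86.8% and 13.3%.

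In P25 pulp-like cells Ifitm1 was the member furthest above the other mesenchymal classes. Several interferon-induced genes had a modest excess there, while class I heavy chains and Ly6e were low. Against the other mesenchymal classes (3157 ligament-like, osteoblast-like, odontoblast-like, fibroblast-like and marrow stromal-like cells), 8 of 42 members were higher and 3 lower in the 963 pulp-like cells. Of the 42, 20 passed the filter, and of all 6586 genes that passed it 12.5% were higher and 6.83% lower. The median log2 ratio was 0.52 over the 42 members, 0.77 over those 20 and 0.29 over all genes tested. Against single mesenchymal classes the median over the members was 1.71 for odontoblast-like, 0.78 for osteoblast-like, 0.43 for ligament-like, -0.26 for connective tissue fibroblast-like and -2.52 for marrow stromal-like cells. With median-of-ratios scaling, which subtracts a shift of 0.35 from every log2 ratio here, 3 members were higher (Ifitm1, Iigp1 and Isg15) and 4 lower (Ly6e, H2-K1, H2-D1 and B2m).

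Of the transcription factors, Irf9 was higher in pulp-like cells at 24.3 against 11.9 CPM (ratio 2.05, 1.78 to 2.36), a call kept in only 7 of 17 alternative settings. Irf1 had 262 CPM in pulp-like and 132 CPM in other mesenchymal cells, a ratio of 1.99 (1.91 to 2.08) just under the threshold, and Irf7 had 7.29 against 5.85 CPM. The 2 sensors were below the filter. Among the effectors, Isg15 had 62.1 CPM in pulp-like and 22.1 CPM in other mesenchymal cells (ratio 2.81, 2.56 to 3.08). The chaperone gene Rtp4 had 20.8 against 7.54 CPM and Oasl2, an oligoadenylate synthetase-like gene, 24.1 against 9.79 CPM. Ifit1 and Ifit3 had ratios of 2.70 and 2.90 but lay under 20 CPM, at 19.1 and 10.8 CPM in pulp-like cells. Ly6e was lower, with 21.4 against 120 CPM (ratio 0.179, 0.157 to 0.203), and Bst2 had 34.7 against 50.8 CPM without reaching 2-fold.

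Of the 7 GTPases 3 were higher in pulp-like cells: Iigp1 at 51.4 against 19.1 CPM (ratio 2.69, 2.43 to 2.98), Gbp7 at 32.8 against 13.3 CPM and Gbp2 at 24.9 against 10.4 CPM. Of the 17 alternative settings, Gbp7 kept its call in 16, Isg15, Oasl2 and Iigp1 in 13 each, Rtp4 in 11 and Gbp2 in 10. With unnamed cells added to the other classes the members still higher were Gbp7 and Ifitm1. The classical class I heavy chains were lower. H2-K1 had 146 CPM in pulp-like and 309 CPM in other mesenchymal cells (ratio 0.473, 0.4496 to 0.497), and H2-D1 had 329 against 715 CPM (ratio 0.460, 0.445 to 0.476). B2m had 386 against 687 CPM (ratio 0.562), while Psmb8 had 42.3 against 37.2 CPM and Tap1 17.0 against 13.2 CPM. The non-classical heavy chain gene H2-T23, from the list of other class I genes, was higher at 149 against 46.7 CPM (ratio 3.20, 3.01 to 3.40), as was the transporter subunit Tap2 at 45.7 against 21.8 CPM. Both H2-K1 and H2-D1 lost their call without cluster 12, with clusters 3 and 7 alone, and in cells with no blood-list UMI.

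Ifitm1 (chr7:140967221-140969825, plus strand) was the member that set pulp-like cells apart. It had 1367 CPM in pulp-like cells and 23.7 CPM in the other mesenchymal classes, a ratio of 57.8 (54.6 to 61.2) that held its call in 17 of 17 alternatives, as Ly6e did. The next class of at least 50 cells, neutrophil-like, had 106 CPM, and the 44 mural-like cells had 441 CPM. After thinning to 1000 UMIs, 541 of 963 pulp-like cells (56.2%, 53.0 to 59.3%) had an Ifitm1 UMI, against 1.10% of endothelial-like and 2.64% of ligament-like cells; without thinning the shares were 86.4%, 5.49% and 18.8%. Its relatives on the same chromosome differed less, with Ifitm3 at 1429 against 766 CPM (ratio 1.87, 1.83 to 1.90) and Ifitm2 at 1661 against 1065 CPM (ratio 1.56, 1.54 to 1.59). Ifitm1 was among the 10 leading genes of pulp-like clusters 3 and 7, although it was left out of the genes used for clustering. It was also among those of cluster 20, an osteoblast or cementoblast-like cluster of 88 cells with a median depth of 1691 UMIs.

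The 4 pulp-like clusters differed widely in these genes. Ifitm1 had 2667 CPM in cluster 3, 1447 CPM in cluster 7, 582 CPM in cluster 12 and 27.3 CPM in cluster 16, where it lay close to the other mesenchymal classes. Isg15 was concentrated in clusters 3 and 7, with 98.8 and 138 CPM, against 6.52 CPM in cluster 12 and 5.78 CPM in cluster 16. Ifit1 followed with 45.9 and 14.3 CPM in clusters 3 and 7 and 1.09 and 2.10 CPM in clusters 12 and 16. Irf1 was highest in cluster 12, at 420 CPM against 213, 171 and 166 CPM in clusters 3, 7 and 16, and H2-K1 was lowest there at 77.1 CPM, against 158, 221 and 171 CPM. The excess of Isg15 in pulp-like cells was thus carried by clusters 3 and 7, which are led by Apod, Trf and Cldn10. Without cluster 3, 4 members were higher than in other mesenchymal classes in place of 8. Of those 8, Gbp7, Gbp2 and Ifitm1 kept their call, while Isg15, Oasl2, Irf9, Rtp4 and Iigp1 lost it.

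**Figure D1:**
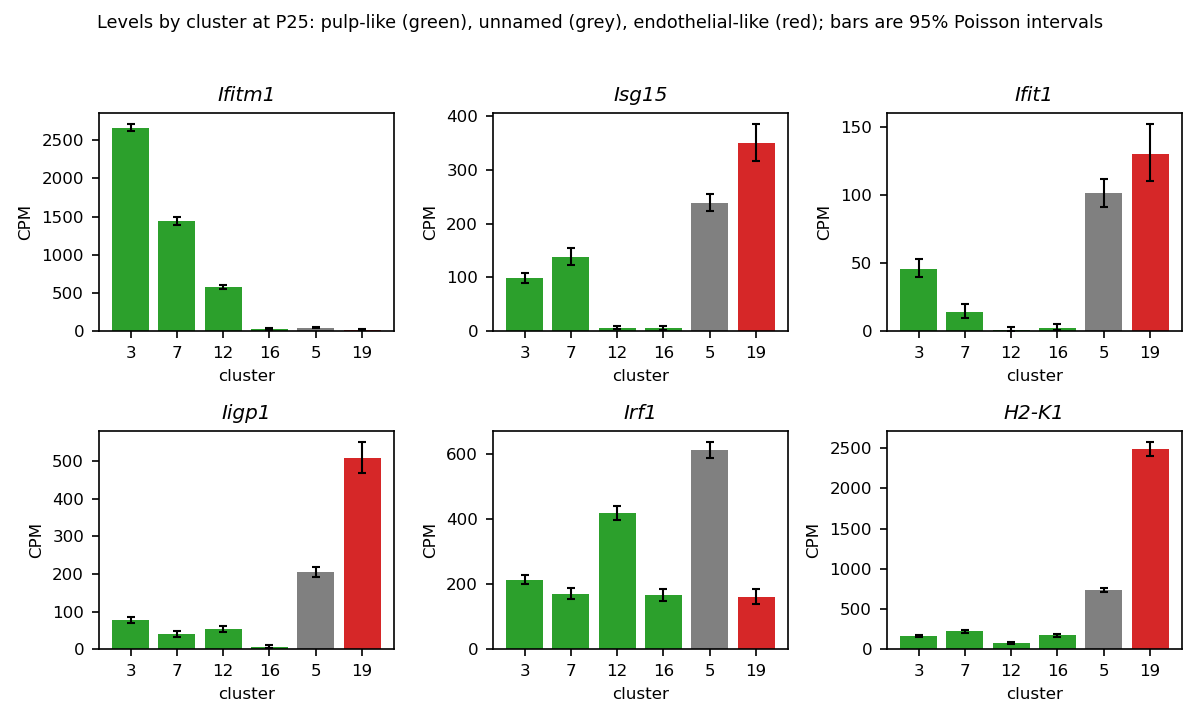
Bars give the CPM of 6 members in single P25 clusters, with 95% Poisson intervals: pulp-like clusters 3, 7, 12 and 16 in green, the unnamed cluster 5 in grey and the endothelial-like cluster 19 in red, each panel with its own axis from 0. Ifitm1 is highest in cluster 3 (2667 CPM) and lowest of the pulp-like clusters in cluster 16 (27.3 CPM), and Isg15 and Ifit1 are low in clusters 12 and 16.

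The UMIs of some induced genes were gathered in single pulp-like cells. After each cell was thinned to 3000 UMIs, 955 pulp-like cells held 198 Isg15 UMIs, and 868 of them held none; with fewer UMIs than cells, most cells would be at 0 however they were spread. A single cell held 29 of the 107 Isg15 UMIs of cluster 3, and 23 of its 36 Ifit1 UMIs were in 1 cell. Ifitm1 had 4301 UMIs in these 955 cells, with 0 in 246 of them and 40 in the highest. For Iigp1 the 151 UMIs left 834 cells at 0, and the highest cell had 11. In endothelial-like cells 49 of 89 cells had no Isg15 UMI at this depth.

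Cells with an Isg15 UMI also had more of the other induced genes in 3 of the 4 classes examined, while in Cxcl12-GFP P6 endothelial-like cells the interval included equality. In 87 pulp-like cells with Isg15, 12 other members (Ifit1, Ifit2, Ifit3, Irf7, Oasl2, Rsad2, Usp18, Ifi44, Rtp4, Cmpk2, Xaf1 and Parp14) summed to 525 CPM, against 88.7 CPM in 868 cells without it, a ratio of 5.92 (4.75 to 7.34). The 6 class I members differed little, with a ratio of 1.25 (1.11 to 1.41), as did Ifitm1 at 1.51 and Ifitm3 at 1.43. The macrophage markers were also higher in the cells with Isg15, at 92.0 against 36.9 CPM (ratio 2.49, 1.52 to 3.93). This excess was in cluster 3 (145 against 25.6 CPM) and not in cluster 7 (46.5 against 52.0 CPM), where the 12 members still had a ratio of 3.86 (2.66 to 5.57). In endothelial-like cells the 12 members summed to 2200 CPM in 40 cells with Isg15 and 1000 CPM in 49 cells without it (ratio 2.20, 1.79 to 2.71), so the endothelial-like cells without Isg15 still exceeded the pulp-like cells with it. In Cxcl12-GFP P6 pulp-like cells the ratio was 4.54 (3.77 to 5.43), and the macrophage markers were lower in the cells with Isg15, at 20.1 against 48.4 CPM. In Cxcl12-GFP P6 endothelial-like cells the 12 members summed to 350 CPM in 20 cells with Isg15 and 244 CPM in 56 cells without it, a ratio of 1.43 (0.805 to 2.48).

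**Figure D2:**
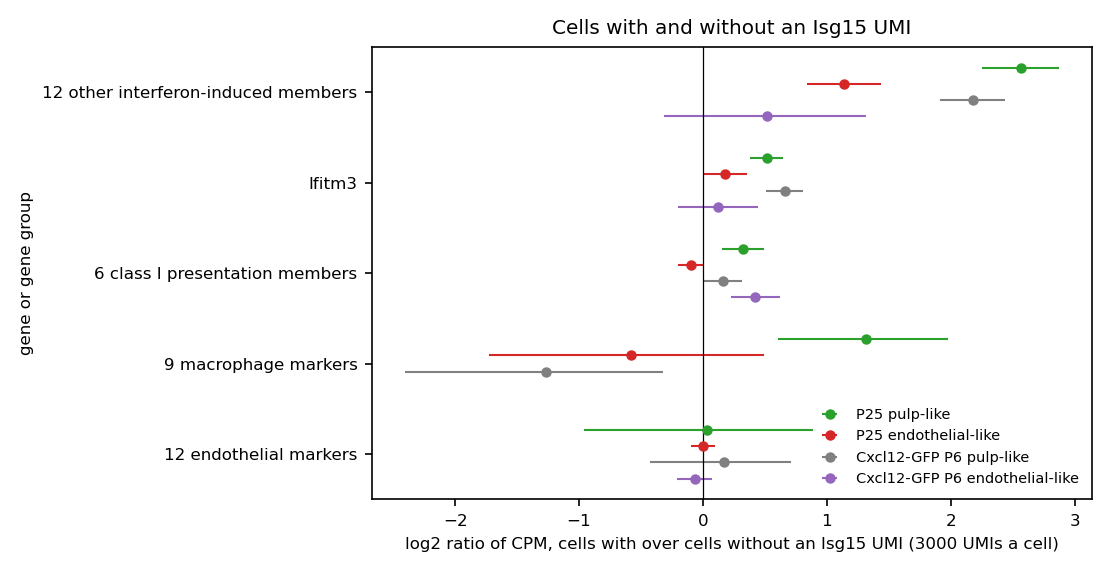
Points give the log2 ratio of summed CPM in cells with over cells without an Isg15 UMI, each cell thinned to 3000 UMIs, with 95% counting intervals, for 5 gene groups in P25 and Cxcl12-GFP P6 pulp-like and endothelial-like cells. The 12 other interferon-induced members lie to the right of 0, with an interval that crosses 0 for Cxcl12-GFP P6 endothelial-like cells (ratio 1.43), and that class has no point for macrophage markers because its cells without Isg15 had 0 UMIs of them.

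P25 endothelial-like cells were set beside the 77 endothelial-like cells of Cxcl12-GFP P6, and 33 of 42 members were higher and 0 lower. Among all 6763 genes tested 18.2% were higher and 10.4% lower, and the median log2 ratio was 1.73 over the members, 1.81 over the 39 that passed the filter and 0.04 over all genes tested. The median depths were 10578 and 7248 UMIs, and 25 members were higher when cells with a blood-list UMI were left out (30 cells at P25 and 71 at P6), 24 of them among the 33. Median-of-ratios scaling, with a shift of -0.19 in log2, gave 34. The macrophage markers summed to 99.2 CPM in P25 and 6.99 CPM in P6 endothelial-like cells, and apart from the cells left out their part in the differences was not tested.

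Irf7 had 218 CPM in P25 and 12.6 CPM in P6 endothelial-like cells (ratio 17.3, 8.99 to 38.3), while Irf1 had 160 against 225 CPM (ratio 0.708, 0.570 to 0.881). Of the sensors, Ifih1 had 54.3 against 5.60 CPM, and Zbp1 had 45 UMIs at P25 against 0 UMIs at P6, which allows up to 4.20 CPM. Of the 20 effectors 15 were higher. Rsad2 had 172 against 11.2 CPM (ratio 15.4, 7.67 to 36.2), Ifit1 130 against 8.39 CPM (ratio 15.5, 6.97 to 43.0), and Ifit3 111 against 2.80 CPM, where 2 UMIs at P6 leave a ratio of 39.8 with an interval of 10.8 to 332. The abundant effectors differed less, with ratios of 3.96 (3.40 to 4.63) for Bst2, 3.17 (2.48 to 4.09) for Isg15 and 2.23 (2.05 to 2.43) for Ly6e. Of the 7 GTPases 6 were higher, led by Iigp1 at 510 against 56.0 CPM (ratio 9.11, 6.61 to 12.9), and Irgm1 had a ratio of 1.77.

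All 6 class I members were higher in P25 endothelial-like cells. H2-K1 had 2492 against 411 CPM (ratio 6.06, 5.37 to 6.85), whereas H2-D1 had 4707 against 2347 CPM, a ratio of 2.01 (1.90 to 2.12) at the threshold. Psmb8 had 352 against 127 CPM, Tap1 75.9 against 21.0 CPM and B2m 2562 against 1218 CPM (ratio 2.10). Of the Ifitm family only Ifitm3 was higher, at 3700 against 1551 CPM (ratio 2.39, 2.23 to 2.55), while Ifitm2 had 1101 against 1195 CPM and Ifitm1 16.4 against 28.0 CPM. From the further lists, 22 of 37 interferon-stimulated genes and 6 of 7 class II genes were higher, with Cd74 at 236 against 5.60 CPM, and 0 of 6 receptor subunits was.

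At P6 itself endothelial-like cells already stood above the other non-blood classes of Cxcl12-GFP P6 (5234 cells) for 14 of 42 members, with 1 lower, against 15.7% and 18.3% of all genes tested. The median log2 ratio was 1.27 over the members, 1.72 over the 21 that passed the filter and -0.08 over all genes tested. Those members included surface and presentation genes: Ly6e at 955 against 29.4 CPM (ratio 32.5), H2-D1 at 2347 against 146 CPM (ratio 16.1), H2-K1 at 411 against 29.97 CPM (ratio 13.7) and Bst2 at 274 against 25.0 CPM (ratio 11.0). Isg15 had 111 against 17.7 CPM (ratio 6.23), whereas Ifit1 had 8.39 against 6.32 CPM (6 UMIs in endothelial-like cells) and Ifit3 2.80 against 4.31 CPM. Ifitm1 was again lower, at 28.0 against 280 CPM, with an interval of the ratio of 0.0611 to 0.155. Among the 5 classes of at least 50 cells at P6, endothelial-like cells were highest for 17 of the 42 members, of which 22 passed the filter, and 31.9% of all genes that passed it, follicle-like cells for 4 and 15.5%, and pulp-like cells for 1, Ifitm1, and 14.6%.

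The 19 endothelial-like cells of Cxcl12-creER P6 were few and shallow, and 3 UMIs there equal 82.3 CPM. H2-D1 had 2195 CPM (1740 to 2732), Ifitm3 1591 CPM (1208 to 2057), Ly6e 1399 CPM (1042 to 1840), B2m 1235 CPM (901 to 1652) and H2-K1 796 CPM (533 to 1143). Isg15 rested on 3 UMIs and Ifitm1 had 0. The intervals of H2-D1, Ifitm3 and B2m held the Cxcl12-GFP P6 values, and those of Ly6e and H2-K1 lay above them. No Cxcl12-creER P6 cluster was named pulp-like.

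P25 pulp-like cells were compared with 2668 pulp-like cells of Cxcl12-GFP P6, and 6 of 42 members were higher and 0 lower. Of the 42, 20 passed the filter, and of all 6983 genes that passed it 10.4% were higher and 9.87% lower. The median log2 ratio was 0.26 over the members, 0.30 over those 20 and -0.19 over all genes tested. H2-K1 had 146 CPM at P25 and 32.7 CPM at P6 (ratio 4.48, 4.09 to 4.90), and H2-D1 had 329 against 155 CPM (ratio 2.13, 2.03 to 2.23). Iigp1 had 51.4 against 11.1 CPM (ratio 4.66, 3.99 to 5.45) and Isg15 62.1 against 28.8 CPM (ratio 2.15, 1.93 to 2.41). The heavy chains and the light chain thus parted, since B2m had 386 against 498 CPM (ratio 0.777, 0.750 to 0.804).

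Ifitm1 had 1367 CPM in P25 and 352 CPM in P6 pulp-like cells (ratio 3.88, 3.77 to 3.99), and Ifitm3 1429 against 560 CPM (ratio 2.55, 2.49 to 2.62). Ifitm2 had 1661 against 1579 CPM, a ratio of 1.05, and the ratios of Ly6e and Bst2 were 0.822 and 1.19. The calls of Ifitm1, Isg15 and H2-D1 were lost without cluster 3, which left H2-K1, Ifitm3 and Iigp1. Of 14 alternative settings, H2-D1 kept its call in 7, Isg15 in 10, Ifitm1 in 13, and H2-K1, Ifitm3 and Iigp1 in 14. Median depth was 11285 UMIs at P25 and 7445 UMIs at P6. The macrophage markers summed to 46.0 and 50.3 CPM in these classes.

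**Figure D3:**
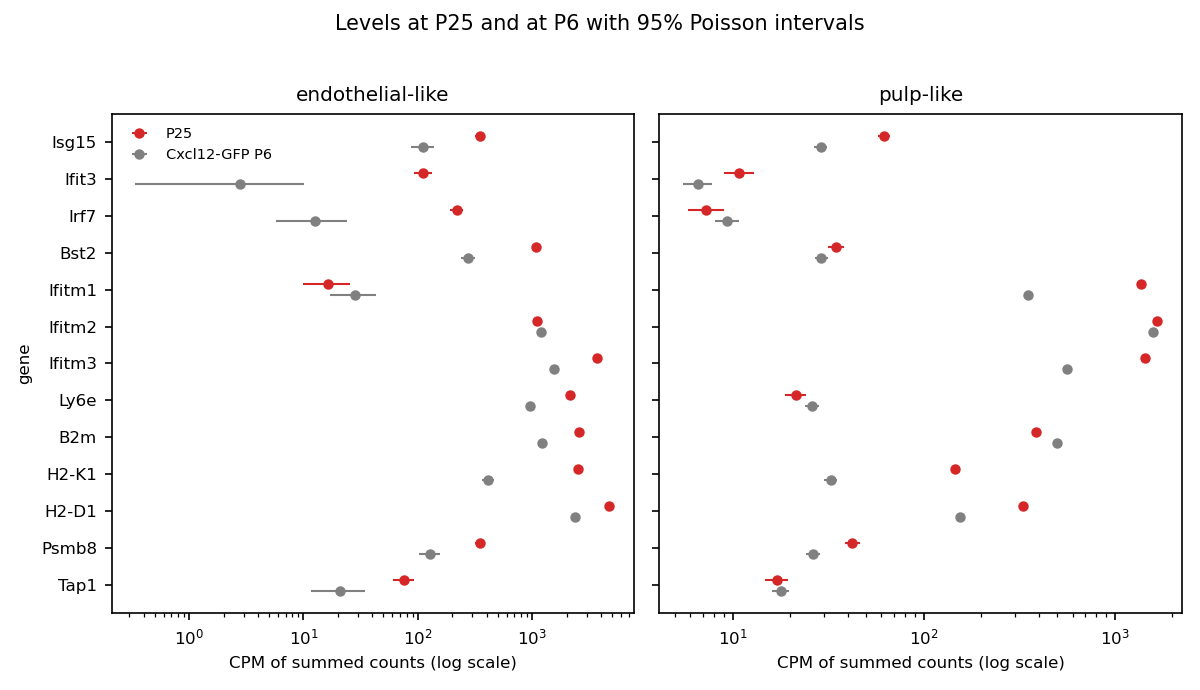
Points give CPM on a log axis, with 95% Poisson intervals, for 13 genes in P25 (red) and Cxcl12-GFP P6 (grey) cells, endothelial-like on the left and pulp-like on the right. In endothelial-like cells the P25 points lie above for most genes but not for Ifitm1 and Ifitm2. In pulp-like cells the widest gaps are those of H2-K1, Ifitm1 and Ifitm3.

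Within Cxcl12-GFP P6, pulp-like cells were higher than the other mesenchymal classes (2463 cells) for 3 of 42 members, of which 17 passed the filter, and lower for 1, against 2.97% and 3% of all genes tested. Isg15 had 28.8 against 6.23 CPM (ratio 4.63, 3.83 to 5.62), Gbp7 26.0 against 6.98 CPM (ratio 3.72) and Gbp2 30.2 against 15.1 CPM, at the threshold, while the GTPase gene Ifi47 had 7.17 against 22.6 CPM (ratio 0.317). Ifitm1 was shared more widely in this library, with 352 CPM in pulp-like and 350 CPM in follicle-like cells. Among P6 pulp-like clusters, cluster 4 had the highest Isg15 (79.8 CPM) and Ifitm1 (798 CPM), and the others had 1.95 to 22.5 CPM of Isg15 and 32.9 to 417 CPM of Ifitm1. Without cluster 4 the only member that was higher was Gbp7.

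Transcripts of interferons themselves were almost absent. Ifnb1, 5 Ifna genes, Ifne and both Ifnl genes had 0 UMIs in all 3 libraries, where a count of 0 allows up to 0.0555% of the 5401 P25 cells, 0.0425% of the 7065 Cxcl12-GFP P6 cells and 0.268% of the 1121 Cxcl12-creER P6 cells to hold a UMI. Ifng, made by T and natural killer cells, had 3 UMIs at P25 and 2 in Cxcl12-GFP P6. Ifnk, a type I interferon known from skin, had 37 UMIs in 36 P25 cells, 10 of them in pulp-like cells, and 92 UMIs in 91 Cxcl12-GFP P6 cells, 39 of them in pulp-like cells. Receptor subunits were present in both classes at P25: Ifnar2 had 116 CPM in endothelial-like and 67.1 CPM in pulp-like cells, and Ifngr1 had 209 and 158 CPM.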

How the data were processed

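The deposited values are raw UMI counts for each gene in each barcode, made by the authors before any normalisation. Build mm10, Cell Ranger and Seurat are named per the submitters' processing notes, and Cell Ranger 6.0.0 (Cxcl12-creER P6) and 3.1.0 (P25) per the file headers; other settings were not in the sources used here. Cells needed 500 genes or more, which 741 of the 6693 P25, 3 of the 7528 Cxcl12-GFP P6 and 536 of the 1691 Cxcl12-creER P6 barcodes lacked, and no more than 15% mitochondrial UMIs, which 295, 8 and 24 further barcodes exceeded. Doublets, scored against 2 simulated doublets per cell, were removed at a set rate of 0.8% per 1000 cells (256, 452 and 10 cells). The deposited totals were 99277096, 68891094 and 6596256 UMIs.

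Each library was clustered alone on 2000 variable genes (20 bins, without the members, the pathway lists, Cxcl12, reporters, mitochondrial and ribosomal genes), 30 principal components and 15 neighbours, by Leiden at resolution 1.0. Clusters were named from 19 marker lists by a rule set after the clusters were seen: the mean log2 fold of the top 5 markers at least 2.0, a lead of 0.2, at least 3 markers at 1.5-fold in 10% of cells, and 10 leading genes that did not favour another list. Summed counts gave CPM with exact Poisson intervals, ratios with exact conditional binomial intervals, log2 ratios with a pseudocount of 1 CPM, and shares with Clopper-Pearson intervals, all at 95%. Shares used the expected count after thinning, and the split of cells by Isg15 used 1 seeded draw. The step that compares summed counts was tested on simulated counts with known folds, for the P25 pulp-like and endothelial-like comparisons within that library. Clustering used leidenalg 0.10.2 on igraph 0.11.9, components scikit-learn 1.9.0 and intervals scipy 1.17.1. Tables used numpy 2.4.6 and pandas 2.3.3, and figures matplotlib 3.10.9. All ran under Python 3.11.15.

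Members and lists were chosen with earlier results of these data known. Values were given for members among the 10 highest or 5 lowest log2 ratios of the P25 comparisons past 20 CPM and 20 UMIs, for a panel of 12, and for up to 4 genes of each further list, and a few others were added after their values were seen. Alternatives covered cell filters, doublets, resolution, naming, scaling, pseudocount, gene filter, thinning, single clusters and blood-marker UMIs. The list of signal transducers and regulators is not reported here. Gene positions are those of the GRCm38 annotation.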

Additional observations from a re-analysis of the deposited data

Results flagged for a closer look

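Among members that passed the filter at both ages, 5 had counting intervals on opposite sides of equality in the same contrast, and the differences were not tested. For pulp-like over other mesenchymal classes, the log2 ratio at P25 and in Cxcl12-GFP P6 was 0.64 and -0.29 for Ifitm2, -0.54 and 0.45 for Bst2, -1.08 and 0.29 for H2-K1, and -1.12 and 0.20 for H2-D1. For endothelial-like over other non-blood classes it was 0.47 and -0.41 for Ifi27. Ifi47, under 20 CPM in P25 pulp-like cells and so outside that count, had 0.51 and -1.53 for pulp-like cells. The mesenchymal classes that make up the comparison are not the same at P25 and P6.

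A cluster that took no name also carried induced genes. Isg15, Ifit1 and Iigp1 had 62.1, 19.1 and 51.4 CPM in P25 pulp-like cells and 350, 130 and 510 CPM in P25 endothelial-like cells, against 239, 101 and 205 CPM in the 281 cells of unnamed cluster 5. The best marker list of cluster 5 was that of dental follicle or periodontal ligament (score 2.71), with the erythroid list next (2.48). It took no name because its leading genes favoured another list, and haemoglobin genes and Mmp13 were among them. These cells enter the comparisons only where unnamed cells are added or clusters are named by the best list alone. Each of these settings left 2 of the 8 members higher in pulp-like cells (Gbp7 and Ifitm1).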

How the results depend on the processing

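The counts of members higher in P25 endothelial-like cells ranged from 26 to 37 against other non-blood classes and from 25 to 34 against P6. Of 176 recomputed counts, 155 stayed within 1.5 times the value reported. Of 1144 log2 ratios of single genes 700 stayed within the counting interval of the value reported and 444 moved past it, as did 12 of 24 shares. For P25 pulp-like over other mesenchymal cells, the 8 higher became 13 with no gene filter, 3 with median-of-ratios scaling, 4 without cluster 3, 2 with naming by the best list alone and 3 at resolution 0.5. The 3 lower became 5 with no gene filter, 1 with cells lacking blood-list UMIs and 1 without cluster 12. Median-of-ratios shifts in log2 were 0.44 for P25 endothelial-like cells (35 higher and 1 lower), -0.13 for P25 over P6 pulp-like cells (6 and 0) and 0.15 for P6 endothelial-like cells (13 and 1). In settings chosen after seeing the data, 2 were higher with unnamed cells added to the other classes, and 1 was lower with clusters 3 and 7 alone. With no gene filter, the P25 endothelial-like count of 1 lower became 2, the 6 members higher in P25 over P6 pulp-like cells became 13, the 3 higher in P6 pulp-like cells became 12, and for P6 endothelial-like cells 14 higher became 24 and 1 lower became 3. For P25 over P6 pulp-like cells, 3 were higher without cluster 3 and 1 was lower, in place of 0, at resolution 0.5. For P25 over P6 endothelial-like cells, 1 was lower in place of 0 at a 10% mitochondrial limit and with doublets kept. For P6 pulp-like cells, 1 was higher without cluster 4, and 0 lower by the mean over cells. Isg15 shares of 4.57% (pulp-like), 25.3% (endothelial-like), 1.99% (ligament-like) and 5.99% (macrophage-like) became 9.95%, 51.7%, 4.597% and 14.2% at 3000 UMIs and 19.7%, 75.8%, 13.0% and 38.4% without thinning, and the ligament-like share was 3.84% at resolution 0.5. The pulp-like Ifitm1 share of 56.2% became 73.9%, 86.4% and, at resolution 0.5, 64.2%. Except for fewer cells or genes tested by construction, the causes were not tested. Among the computed alternatives no log2 ratio of a called gene changed direction for the panel of 12 and Ifitm1. The other called members were checked only for keeping their call.

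No paired analysis was possible because each group is 1 library. The 91 and 77 endothelial-like cells limit members under about 20 UMIs, the Cxcl12-creER P6 class of 19 cells limits most members, and counting intervals leave out variation between animals, runs and dissociations.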

Other observations

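The highest levels of several members were in a class too small for the ranking of P25 classes by level. Its cells did enter the comparisons, as part of the other non-blood and other mesenchymal classes. P25 endothelial-like cells had 350 CPM of Isg15, 130 CPM of Ifit1, 510 CPM of Iigp1, 160 CPM of Irf1 and 4707 CPM of H2-D1, against 608, 349, 629, 906 and 6022 CPM in the 27 bone marrow stromal-like cells of that library. Rsad2 parted from the others, with 172 CPM in endothelial-like and 0 CPM in marrow stromal-like cells.

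Among the other small P25 classes, the 43 erythroid-like cells had 99.4 CPM of Isg15 and 141 CPM of Rsad2 but 2.29 CPM of Ifit1 and 0 CPM of Iigp1. The 44 mural-like cells had 489 CPM of Irf1, 441 CPM of Ifitm1 and 133 CPM of Isg15. Pulp-like cells had 19.1 CPM of Ifit1, 10.8 CPM of Ifit3, 1.27 CPM of Rsad2 and 1.70 CPM of Ifi44, against 0 UMIs of each in the 181 odontoblast-like cells, their neighbours in the tooth.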
